A study of Mus musculus with 18 samples.

Results

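Cells derived from mouse embryonic stem cells and labelled as osteoblasts (ESC-OB GFP+) were compared with osteoblasts sorted directly from mouse bone, bone GFP+ (hi), by RNA sequencing. The comparison took 6 of the 18 libraries of the series, 3 of each group, by joining the count table of the ESC experiment with that of fresh bone on the gene symbol and scaling these 6 libraries together. Both populations carried Col2.3GFP, a transgene in which a fragment of the *Col1a1* promoter drives green fluorescent protein, and both were collected by fluorescence. The bone GFP+ (hi) cells came straight from the long bones of Col2.3GFP transgenic mice and had no treatment. The ESC-OB GFP+ cells came from Col2.3GFP ESC that had been put through osteogenic differentiation in culture, and their labels also call them GFP+ (hi) and osteoblasts. Ages of the mice, the number of ESC lines and whether replicates were separate mice or cultures are not given in the sources used here, so p-values measure only the spread between these libraries. Every bone library was in 1 deposited table and every ESC-OB library in another. The source of the cells, growth in culture, the fluorescence gate and the table therefore cannot be told apart in any difference given here.

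Osteoblasts are the cells that build bone. They secrete type I collagen in large amounts, cross-link it outside the cell and mineralize it with the help of alkaline phosphatase and a set of acidic matrix proteins, and osteocalcin, encoded by *Bglap*, appears late in this course. The transcription factors *Runx2* and *Sp7* are required for the lineage, and *Dlx5* acts upstream of *Sp7*. Differentiating ESC can give rise to derivatives of the 3 germ layers, so markers of epithelium, muscle, endoderm and endothelium were read beside those of bone.

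The 3 markers chosen for osteoblasts split in the ESC-OB GFP+ libraries. *Bglap* had 2, 29 and 2 counts in ESC-OB GFP+ and 1697990, 792616 and 1562520 counts in bone GFP+ (hi). The ESC-OB libraries were thus at or near 0 for the gene that ranked among the 5 most abundant of bone GFP+ (hi), and the groups lay far apart (log2 fold change -18.38, SE 0.81, adjusted p = 1.1e-05 by edgeR's quasi-likelihood test with Benjamini-Hochberg adjustment over all genes). *Dlx5* had 0, 31 and 8 counts in ESC-OB GFP+ and 1035, 505 and 694 counts in bone GFP+ (hi) (log2 fold change -7.32, SE 0.76, adjusted p = 1.6e-04). *Dcn*, which encodes the collagen-binding proteoglycan decorin, was present in both groups at 259.7, 527 and 246 CPM in ESC-OB GFP+ and 5431, 5604 and 5325 CPM in bone GFP+ (hi), where CPM are counts scaled by the library total and its TMM factor. Its ESC-OB level was lower in each library than in any bone library (log2 fold change -3.99, SE 0.3, adjusted p = 3.6e-05). *Sp7* was likewise near 0 in the ESC-OB libraries at 0.222, 2.88 and 0.474 CPM in ESC-OB GFP+ and 447, 399 and 353 CPM in bone GFP+ (hi) (log2 fold change -8.43, SE 0.68, adjusted p = 1.0e-04). Decorin is made by connective tissue cells in general, so *Dcn* does not tell an osteoblast from a fibroblast. The levels of *Bglap*, *Dlx5* and *Sp7* went against the label of osteoblast. Summed lists of bone genes were higher in ESC-OB GFP+ than in the undifferentiated ESC of the series. The osteoblast matrix list was at 15859 to 25870 CPM of total counts (without the TMM factor) in ESC-OB and 1791 to 1885 in ESC. The osteogenic transcription factors were at 972 to 1216 and 463 to 509. These sums rested in large part on a few members. The matrix list took 1.59 to 2.59% of the ESC-OB counts. Most of this lay on *Col1a1* (0.324 to 0.774%), *Col1a2* (0.272 to 0.705%) and *Sparc* (0.709 to 0.878%). A large part of the transcription factor sum lay on *Atf4*, given below. The sums thus do not speak for the other members. The cells are called ESC-OB GFP+ here without a cell type of their own. The libraries are of bulk RNA, in which fewer cells of a type and less RNA per cell cannot be told apart.

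The promoters of *Bglap*, at the extreme of the comparison, and of *Alpl*, the alkaline phosphatase gene, show 2 genes that were both high in bone. The windows are the RefSeq promoter sequences, found by exact match at 1 place each in mm9, and read 5′ to 3′ up to the start of the transcript. The *Bglap* window is chr3:88188389-88188638 on the minus strand, and the *Alpl* window is chr4:137352300-137352549 on the minus strand. Capitals mark the letters ACCACA, the core of the sequence bound by RUNX factors (TGTGGT on the other strand).
Bglap: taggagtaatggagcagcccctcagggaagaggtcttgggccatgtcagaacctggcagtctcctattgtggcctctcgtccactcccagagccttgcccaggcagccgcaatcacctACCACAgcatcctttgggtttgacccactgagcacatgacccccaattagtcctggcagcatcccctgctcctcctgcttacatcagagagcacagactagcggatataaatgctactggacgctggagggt
Alpl: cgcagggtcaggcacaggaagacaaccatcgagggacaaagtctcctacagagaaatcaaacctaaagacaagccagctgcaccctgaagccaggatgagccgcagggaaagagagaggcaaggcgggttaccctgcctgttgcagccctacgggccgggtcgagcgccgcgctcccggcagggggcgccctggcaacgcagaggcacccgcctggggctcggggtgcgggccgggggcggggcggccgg
The *Bglap* window held the motif once, starting 132 bases before the transcript start, and the *Alpl* window did not hold it. Of 27025 genes with a window, 15.9% held the motif on either strand. It was present for 6 of the 17 osteoblast matrix genes that had a window, for 13.6% of the genes called higher in ESC-OB GFP+ and for 13.1% of those called lower. A match of these 6 letters is a description of the sequence and not a binding site. *Bglap* lies at chr3:88187423-88188386 and its neighbour *Bglap2* at chr3:88181658-88182621 in mm9 (GENCODE vM1), both on the minus strand. Their coding sequences shared 284 of 288 positions, so the split of reads between these copies is uncertain. *Bglap2* had 2, 14 and 5 counts in ESC-OB GFP+ and 707414, 331578 and 650519 in bone GFP+ (hi), in the same order as *Bglap*.

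**Figure D1:**
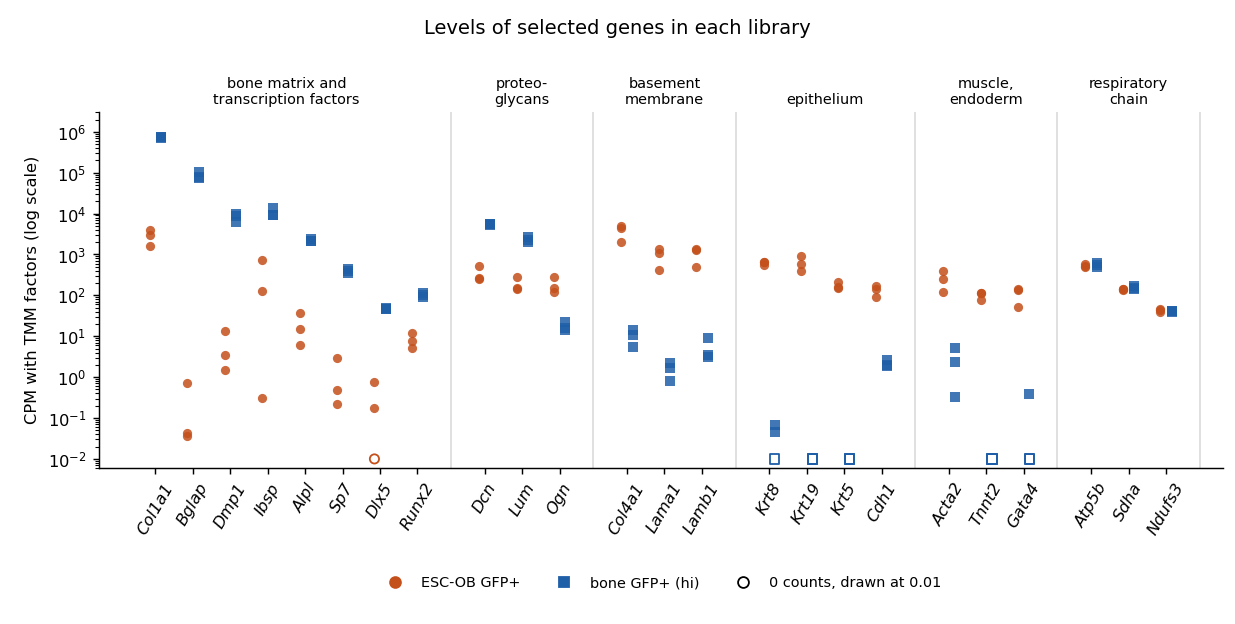
Level of 24 genes in each of the 6 libraries, in CPM with TMM factors on a log scale; circles are the ESC-OB GFP+ libraries, squares the bone GFP+ (hi) libraries, and open symbols libraries with 0 counts. The bone matrix genes and *Dcn* lie higher in bone GFP+ (hi), the basement membrane, epithelial, muscle and endoderm genes lie higher in ESC-OB GFP+, and the 3 respiratory chain genes lie close together.

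Total counts were 20680956 to 26601417 per ESC-OB library and 21425212 to 43874837 per bone library. The composition of the libraries differed. In bone GFP+ (hi), 36.2 to 37.5% of all counts fell on *Col1a1*, against 0.324 to 0.774% in ESC-OB GFP+, and the 2 genes of type I collagen together took 52.2 to 54.6% and 0.596 to 1.48%. The 10 most abundant genes held 65.3 to 66.3% of the counts in bone and 5.58 to 6.44% in ESC-OB. TMM factors, which rest on the middle of the distribution, were 1.98 to 2.03 in ESC-OB and 0.491 to 0.502 in bone. Scaling to total counts instead raised log2 fold changes by a median of 2.01. Replicates correlated at 0.957 to 0.976 (log2 CPM) within ESC-OB, 0.932 to 0.971 within bone and 0.643 to 0.712 between the groups. In bone replicate 2, *Xist*, transcribed from the inactive X chromosome, was at 2.09 CPM against 33.6 and 23.0 in the other bone libraries, and the red cell gene *Alas2* was at 14.1 CPM against 0.181 and 1.72. The list of sex-linked genes summed to 33.9, 69.5 and 23.4 CPM in bone replicates 1 to 3. In replicate 2 most of that sum thus lay outside *Xist*, so that sex-linked expression differed between the bone libraries.

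**Figure D2:**
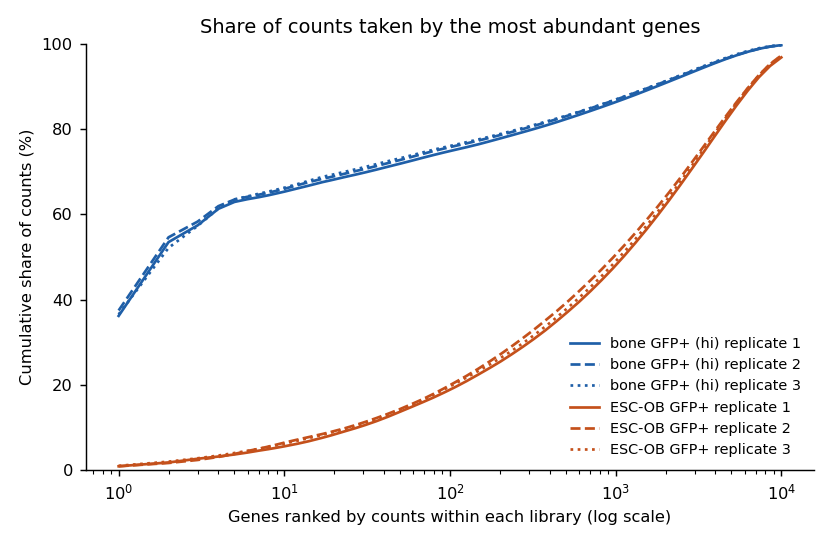
Cumulative share of counts (%) against the number of genes, ranked by counts within each library on a log scale, for the 3 ESC-OB GFP+ and 3 bone GFP+ (hi) libraries. In bone the 2 most abundant genes hold 50% of the counts, while in ESC-OB this takes 971 to 1111 genes.

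Of 14364 genes tested, 3918 (27.3%) were called higher in ESC-OB GFP+ and 3371 (23.5%) lower, 50.7% in either direction. By the fitted values 3278 of the genes called higher and 2183 of those called lower changed by at least 2-fold. The median log2 fold change of all genes tested was 0.12. The libraries of the groups did not overlap for 63.2% of the genes. With libraries scaled to total counts, 85.9% were called higher and 3.95% lower, with a median of 2.13. The 3918 genes called higher were also higher on that scale, while 1855 of the 3371 called lower turned to higher and 568 stayed lower. The direction of a gene called lower by less than about 2 on the log2 scale thus depended on the scaling, and the counts on total counts are printed beside the gene lists below that had members called lower. List counts on either scale are to be read against the shares of all genes tested given here. Members of a list that are low in 1 group passed the filter on low counts through the other group and had to differ, so counts and medians over the members tested are descriptions of those members. The 95% interval of the fold change lay wholly within 2-fold for 3781 genes (26.3%). Of the 7075 genes not called, 3256 had such an interval and 3819 had one that reached further, so that a missed call does not show equal levels.

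The 10 largest falls and the 10 largest rises, taken among called genes with libraries apart and a mean of at least 10 CPM in the higher group, were genes of different tissues. The falls were led by *Bglap*, *Bglap2* and *Bglap3*, the osteocalcin cluster, and included *Dmp1*, an acidic matrix protein of osteocytes, *Col2a1*, the collagen of cartilage, and *Car3*, a carbonic anhydrase. *Car3* was at 0.148, 2.12 and 1.53 CPM in ESC-OB GFP+ and 2939, 2071 and 3690.4 CPM in bone GFP+ (hi) (log2 fold change -11.18, SE 0.64, adjusted p = 2.9e-05). *Bcan*, which encodes the proteoglycan brevican, was at 0, 0.122 and 0.151 CPM in ESC-OB GFP+ and 173, 172 and 153 CPM in bone GFP+ (hi). The others were *Slc8a3*, a sodium-calcium exchanger (-10.49 ± 0.36 on the log2 scale, ± SE), *Lipc*, hepatic lipase (-9.48 ± 0.56), and *Fam78b* (-9.29 ± 0.45). No ESC-OB library passed 2.12 CPM for these 5 genes.

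The rises were of genes without a count in the bone libraries, so folds are lower bounds taken against a floor of 3 counts over the 3 bone libraries. *Cyp2f2*, a cytochrome P450 of airway club cells, was at 958, 440.0 and 563 CPM in ESC-OB GFP+ and thus at least 10787-fold higher. The keratin genes *Krt19*, *Krt7*, *Krt6a* and *Krt5*, which encode filament proteins of epithelia, were at least 10320.4, 8609, 7652 and 2879.5-fold higher. *Tnnt2*, cardiac troponin T, was at 76.1, 115 and 115 CPM, at least 1593-fold higher. The remaining 4 were *Psca*, a surface antigen of epithelia (at least 5304-fold), *Aqp8*, a water channel (2056), *Ces1d*, a carboxylesterase (1554), and *Efemp1*, a matrix glycoprotein (1497). *Psca* varied most between ESC-OB libraries, at 608, 94.2 and 225 CPM.

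**Figure D3:**
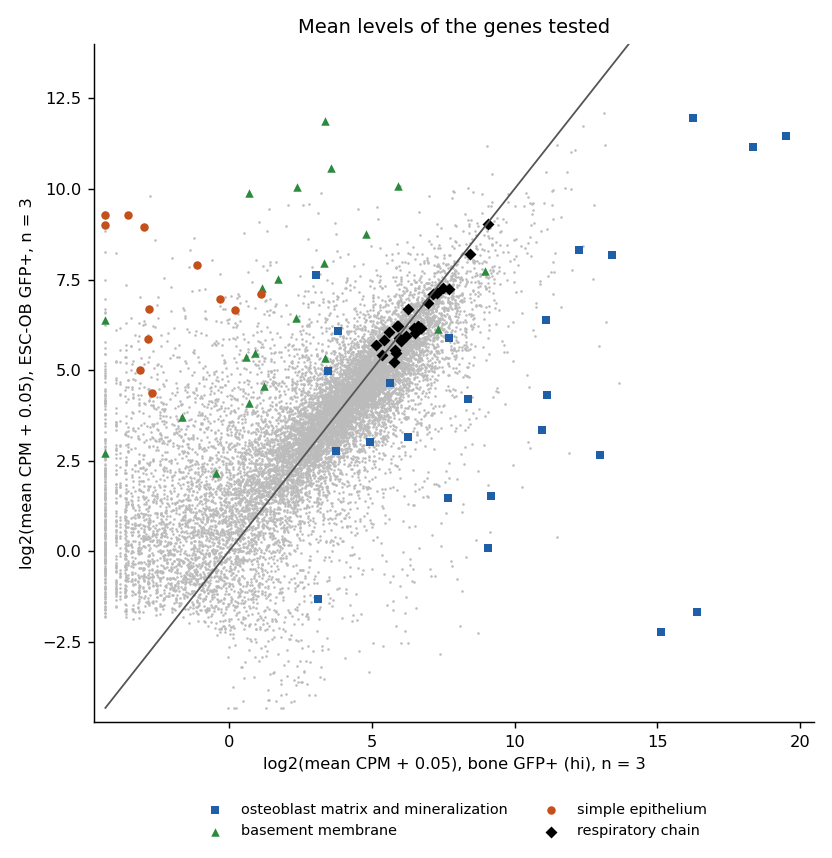
Mean level of the 14364 genes tested in bone GFP+ (hi) (x axis) and in ESC-OB GFP+ (y axis), as log2(mean CPM + 0.05) over 3 libraries each; grey points are all genes, coloured symbols the members of 4 lists, and the line marks equal levels. Osteoblast matrix genes lie mostly right of the line, basement membrane and simple epithelium genes mostly left of it, and respiratory chain genes on it.

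Genes of bone matrix and mineralization were mostly lower in ESC-OB GFP+. Of 24 members tested, 20 fell, 3 rose and 1 was not called, with a median log2 fold change of -4.67. Scaled to total counts, 16 fell and 4 rose, with a median of -2.66. Together the members took 64.4 to 65.3% of the counts in bone and 1.59 to 2.59% in ESC-OB. Against the 83.3% of members that fell, 23.5% of all genes tested did.

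Among matrix proteins, *Col1a1* was at 1595, 3901 and 2981 CPM in ESC-OB GFP+, still among the 5 most abundant genes there, and its difference from bone was -8.03 ± 0.42 (SE) on the log2 scale. *Col1a2* followed it (log2 fold change -7.21, SE 0.41, adjusted p = 2.0e-05). *Sparc*, a collagen-binding glycoprotein also called osteonectin, was at 4327, 3576 and 3924 CPM in ESC-OB and was among the 5 most abundant genes of both groups (log2 fold change -4.3, SE 0.24, adjusted p = 9.8e-06). *Spp1*, osteopontin, was at 178, 493 and 282 CPM in ESC-OB GFP+ and 5518, 5801 and 3523 CPM in bone GFP+ (hi). Its groups were apart by -3.96 ± 0.37 on the log2 scale.

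Among the acidic proteins that bind mineral, *Ibsp* and *Mepe* varied widely between ESC-OB libraries. *Dmp1* was at 1.5, 13.6 and 3.56 CPM in ESC-OB GFP+ and 6236, 9584 and 8748 CPM in bone GFP+ (hi) (log2 fold change -10.37, SE 0.66, adjusted p = 5.8e-05). *Ibsp*, bone sialoprotein, was at 0.315, 737 and 130.2 CPM in ESC-OB GFP+ and 9147, 9254 and 13983 CPM in bone GFP+ (hi) (log2 fold change -5.22, SE 1.47, adjusted p = 0.037). ESC-OB replicate 1 lacked almost all *Ibsp*, and its call was lost without ESC-OB replicate 3 or without any 1 of the bone libraries, at log2 fold changes of -5.33 to -4.91. *Mepe*, a matrix phosphoglycoprotein, was at 0.0371, 16.3 and 3.82 CPM in ESC-OB GFP+ and 9.34, 16.2 and 14.5 CPM in bone GFP+ (hi), so that its groups overlapped and it was not called (adjusted p = 0.52).

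Enzymes and transporters of mineralization were low in ESC-OB. *Alpl*, alkaline phosphatase, was at 6.1, 37.7 and 15.3 CPM in ESC-OB GFP+ and 2400.2, 2184 and 2131 CPM in bone GFP+ (hi) (log2 fold change -6.83, SE 0.53, adjusted p = 8.4e-05). *Phex*, a peptidase that restrains phosphate wasting, was at 0.333, 6.09 and 1.66 CPM in ESC-OB GFP+ and 218, 168 and 222 CPM in bone GFP+ (hi) (log2 fold change -6.25, SE 0.72, adjusted p = 5.1e-04). The groups were apart for both genes, and the ESC-OB libraries differed among themselves by several fold. *Smpd3*, a sphingomyelinase needed for mineralization, was at 3.58, 20.2 and 6.85 CPM in ESC-OB GFP+ and 2147, 2058 and 1736 CPM in bone GFP+ (hi). *Phospho1*, which frees phosphate in matrix vesicles, was at 0.315, 0.39 and 0.345 CPM in ESC-OB GFP+ and 10.5, 6.94 and 8.25 CPM in bone GFP+ (hi). *Fam20c*, the kinase of secreted acidic proteins, was at 18, 21.9 and 15.6 CPM in ESC-OB GFP+ and 249, 401 and 341 CPM in bone GFP+ (hi) and differed by -4.16 ± 0.21 (log2). These genes were lower in each ESC-OB library than in any bone library. *Ifitm5*, an osteoblast membrane protein, and *Slc36a2*, an amino acid transporter, changed by -7.7 ± 0.72 and -9.09 ± 0.63.

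The 3 members that rose were *Mgp*, *Slc20a1* and *Slc20a2*. *Mgp*, matrix Gla protein, an inhibitor of calcification that cartilage and vessel walls make, was at 90.6, 362 and 139.8 CPM in ESC-OB GFP+ and 7.58, 11.4 and 5.48 CPM in bone GFP+ (hi) (log2 fold change 4.61, SE 0.5, adjusted p = 2.6e-04). The phosphate transporters *Slc20a1* and *Slc20a2* were at 54.9 to 75.1 and 29.8 to 34.8 CPM in ESC-OB and 12.7 to 15.8 and 7.19 to 13.9 CPM in bone, so both rose while other parts of the mineralization set were lower.

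Of 22 osteogenic transcription factors, 14 fell, 2 rose and 6 were not called (median -1.79); on total counts 10 fell and 9 rose (median 0.22). *Runx2* was at 5.09, 12.3 and 7.63 CPM in ESC-OB GFP+ and 113, 91.3 and 103 CPM in bone GFP+ (hi) (log2 fold change -3.62, SE 0.29, adjusted p = 3.9e-05). *Mef2c*, which acts in osteocytes and muscle, was at 5.5, 10.7 and 7.03 CPM in ESC-OB GFP+ and 358, 329.8 and 399 CPM in bone GFP+ (hi), and *Dlx3*, another distal-less factor, differed by -7.03 ± 0.35. These 3 were lower in ESC-OB on both scales, *Runx2* by -1.62 (log2) on total counts. *Zbtb16*, a zinc finger factor, was one of the 2 that rose, at 15.6, 29.2 and 23.2 CPM in ESC-OB GFP+ and 0.817, 0.95 and 0 CPM in bone GFP+ (hi). *Twist2*, a mesenchymal factor, was the other, at 2.63, 8.34 and 4.91 CPM in ESC-OB GFP+ and 0.0907, 0.95 and 1.39 CPM in bone GFP+ (hi) (adjusted p = 0.024), and its call was lost without ESC-OB replicate 2 or 3 or bone replicate 2. *Atf4*, a stress and amino acid factor with a role in osteoblasts, was at 191, 248 and 177 CPM in ESC-OB GFP+ and 208, 175 and 217 CPM in bone GFP+ (hi), with overlapping libraries.

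The osteocyte list of 12 genes had 9 members tested, of which 6 fell and 2 rose (median -2.18); on total counts 4 fell and 2 rose. *Irx5*, a homeobox factor, was at 9.78, 11.2 and 9.81 CPM in ESC-OB GFP+ and 117, 113 and 133 CPM in bone GFP+ (hi). *Pdpn*, the podoplanin gene that marks young osteocytes and also epithelia and lymph vessels, rose (92.8, 90.4 and 94.3 CPM in ESC-OB GFP+ and 29.8, 17.7 and 34.2 CPM in bone GFP+ (hi)), as did the actin-capping gene *Capg* (111, 58.9 and 69.8 CPM in ESC-OB GFP+ and 27.4, 27 and 26.3 CPM in bone GFP+ (hi)). *Sost*, which encodes the osteocyte Wnt inhibitor sclerostin, had too few counts in both groups to be tested.

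Collagen genes of the fibrillar and beaded types were lower or not called, and none rose on the TMM scale. Of 16 members, 10 fell and 6 were not called (median -3.23); on total counts 8 fell and 4 rose (median -1.23). The largest falls were those of *Col2a1*, *Col11a2* and *Col24a1*. *Col2a1*, the main collagen of cartilage, was at 5.06, 5.92 and 8.67 CPM in ESC-OB GFP+ and 5762, 3626 and 2267 CPM in bone GFP+ (hi) (log2 fold change -9.21, SE 0.35, adjusted p = 4.8e-06), and *Col11a2* at 4.08, 54.4 and 16.6 CPM in ESC-OB GFP+ and 12881, 13371 and 12279 CPM in bone GFP+ (hi) (log2 fold change -9.0, SE 0.72, adjusted p = 1.6e-04). *Col11a1*, which nucleates fibrils, was at 32.3, 62.1 and 56.2 CPM in ESC-OB GFP+ and 7762, 7983 and 7878 CPM in bone GFP+ (hi). *Col24a1*, a collagen of developing bone, changed by -8.38 ± 0.56. *Col3a1*, the collagen of soft connective tissue, was at 1195, 1605 and 1462 CPM in ESC-OB GFP+ and 1641, 3752 and 1269.5 CPM in bone GFP+ (hi). Its libraries overlapped and it was not called (adjusted p = 0.19).

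Genes that modify collagen moved in both directions. Of 29 members, 22 fell and 4 rose (median -2.34), while on total counts 12 fell and 12 rose. The proteinases that trim procollagen were lower: *Bmp1*, which cuts the C-propeptide, was at 64.4, 92.8 and 94.3 CPM in ESC-OB GFP+ and 2069, 2212 and 2386 CPM in bone GFP+ (hi) (log2 fold change -4.73, SE 0.19, adjusted p = 3.1e-06), and *Adamts2*, which cuts the N-propeptide, at 49, 77.2 and 58.6 CPM in ESC-OB GFP+ and 1616, 1741 and 1670.3 CPM in bone GFP+ (hi) (log2 fold change -4.77, SE 0.19, adjusted p = 3.1e-06). *Adamts14* and *Pcolce2*, an N-proteinase and an enhancer of *Bmp1*, changed by -5.36 ± 0.31 and -5.18 ± 0.51. These 4 were lower on both scales. *Loxl1*, a lysyl oxidase that acts on elastin, rose (37.9, 104 and 87.8 CPM in ESC-OB GFP+ and 5.72, 9.6 and 5.61 CPM in bone GFP+ (hi)). *P4ha3*, an isoform of the prolyl 4-hydroxylase subunit, rose as well (18.5, 15.8 and 22.6 CPM in ESC-OB GFP+ and 1.63, 3.33 and 1.12 CPM in bone GFP+ (hi)).

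Small leucine-rich proteoglycans, which coat collagen fibrils, moved in both directions. Of 11 members 6 fell and 3 rose (median -2.43; 5 and 4 on total counts). *Kera*, keratocan, was at 0.0556, 0.268 and 0.0431 CPM in ESC-OB GFP+ and 78.4, 94.7 and 21.3 CPM in bone GFP+ (hi), and *Fmod*, fibromodulin, at 50.2, 55.3 and 28.8 CPM in ESC-OB GFP+ and 872, 1013 and 481 CPM in bone GFP+ (hi). With *Dcn* these were the members that fell most. *Ogn*, osteoglycin, rose (123, 278 and 154 CPM in ESC-OB GFP+ and 13.9, 21.9 and 16.2 CPM in bone GFP+ (hi); log2 fold change 3.42, SE 0.31, adjusted p = 8.4e-05), as did *Prelp* (3.14 ± 0.35) and *Aspn* (3.13 ± 0.33). Groups did not overlap for the 6 genes named here.

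Cartilage genes were present in the bone libraries. Of 16 chondrocyte genes tested 9 fell and 1 rose (median -2.62; 6 and 4 on total counts). *Chad*, a cartilage matrix protein, was at 0.463, 0.98 and 0.172 CPM in ESC-OB GFP+ and 289.8, 346 and 132 CPM in bone GFP+ (hi). The list took 0.748 to 0.9999% of the counts in bone and 0.015 to 0.0387% in ESC-OB, and 3 of its members with the largest falls, *Col2a1*, *Chad* and *Comp*, were lowest among bone libraries in replicate 3. Its sum in bone was 19900, 18031 and 14920 CPM. Most of it lay on *Col11a2*, whose levels are given above with the fibrillar collagens, so the sum says little of the other members. *Sox9*, the factor that starts the cartilage program, was at 24.4, 50.4 and 35.1 CPM in ESC-OB GFP+ and 63.1, 63.1 and 53 CPM in bone GFP+ (hi).

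Secretion through the COPII coat, which carries procollagen from the endoplasmic reticulum (ER), is 1 step of vesicle trafficking between ER and Golgi, which the study followed up. Of 20 COPII and cargo-loading genes, 13 fell and 1 rose (median -1.11), but on total counts 3 fell and 14 rose (median 0.90). Of all genes tested, 23.5% fell by TMM and 85.9% rose on total counts. *Sec16b*, a scaffold of ER exit sites, was at 2.93, 6.02 and 2.46 CPM in ESC-OB GFP+ and 102, 111 and 131 CPM in bone GFP+ (hi) (log2 fold change -4.92, SE 0.31, adjusted p = 1.7e-05). *Sec24d*, the cargo adaptor for procollagen, was at 105, 93.6 and 118 CPM in ESC-OB GFP+ and 713, 668 and 547 CPM in bone GFP+ (hi) (log2 fold change -2.61, SE 0.16, adjusted p = 1.1e-05). *Sec31a*, of the outer coat, was at 179, 162 and 180.4 CPM in ESC-OB GFP+ and 1097, 1013 and 909.7 CPM in bone GFP+ (hi) (log2 fold change -2.53, SE 0.14, adjusted p = 7.6e-06). These 3 were lower in ESC-OB on both scales, at -2.91, -0.59 and -0.52 on total counts.

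The study knocked down a larger set of trafficking genes, from which it singled out 15 by the outcome of that experiment. Of these 15, 12 fell and 0 rose (median -1.43), whereas on total counts 2 fell and 9 rose (median 0.58). Of all genes tested, 23.5% fell by TMM and 85.9% rose on total counts. The study drew the larger set from vesicle transport genes enriched in GFP+ cells of all its sources, ESC-OB and bone included. It took those with relatively high reads that were little characterized in bone. As described, that choice did not compare ESC-OB with bone. It did use the same samples, so the direction of these genes is not independent evidence. *Ramp1*, a receptor-modifying protein, was at 13.4, 21 and 14.1 CPM in ESC-OB GFP+ and 131, 128 and 182 CPM in bone GFP+ (hi) (log2 fold change -3.19, SE 0.22, adjusted p = 2.0e-05). *Bet1*, a SNARE of ER-to-Golgi vesicles, was at 13.5, 16.6 and 11.9 CPM in ESC-OB GFP+ and 69.9, 63 and 66 CPM in bone GFP+ (hi) (log2 fold change -2.25, SE 0.16, adjusted p = 2.1e-05), and on total counts its difference of -0.24 was not called.

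Of 26 ER chaperones and stress genes, 13 fell and 2 rose (median -0.49), where 23.5% of all genes tested fell. On total counts 1 fell and 22 rose, near the 85.9% of all genes tested that rose on that scale. *Creb3l1*, a transcription factor that drives collagen secretion in bone, was at 81.7, 64.3 and 93.8 CPM in ESC-OB GFP+ and 1072, 958 and 908 CPM in bone GFP+ (hi) (log2 fold change -3.62, SE 0.18, adjusted p = 4.8e-06) and was the member lower on both scales. *Trib3*, a stress-induced pseudokinase, went the other way (55.1, 52.1 and 45.8 CPM in ESC-OB GFP+ and 1.13, 1.995 and 0.33 CPM in bone GFP+ (hi); log2 fold change 5.53, SE 0.42, adjusted p = 2.8e-05).

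**Figure D4:**
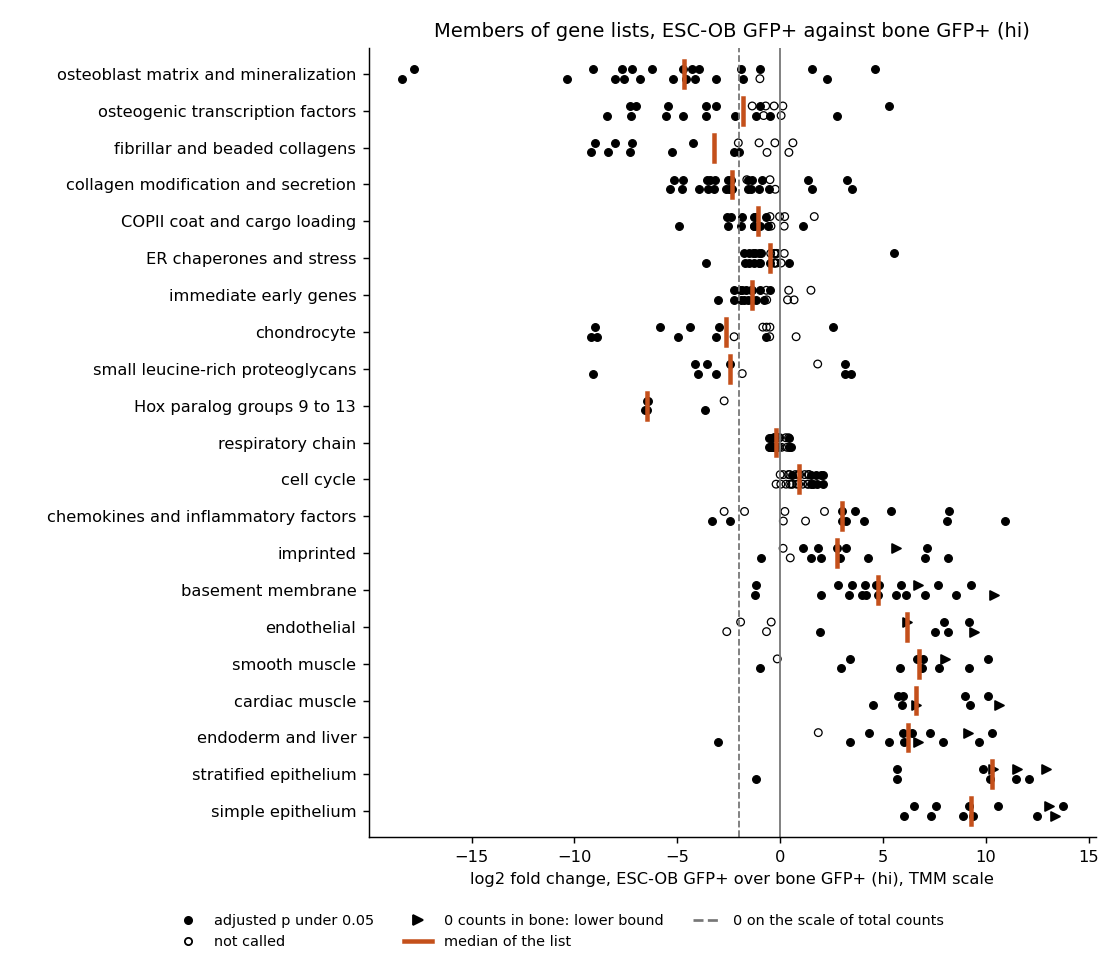
log2 fold change of ESC-OB GFP+ over bone GFP+ (hi) on the TMM scale for the tested members of 21 gene lists; filled circles are called genes, open circles genes not called, arrowheads lower bounds of genes with 0 counts in bone, and bars the list medians. The dashed line, near -2, is where the direction turns on the scale of total counts: the bone lists lie left of it in part, and most members of the basement membrane, epithelial and muscle lists lie right of 0.

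Basement membrane genes were higher in ESC-OB GFP+ and took 1.13 to 2.61% of its counts against 0.0329 to 0.0446% in bone. Of 21 members 19 rose and 2 fell (median 4.75), and 21 rose on total counts, where 27.3% and 85.9% of all genes did. *Col4a1*, the network-forming collagen of basement membranes, was at 4349, 1995 and 4884 CPM in ESC-OB GFP+ and 5.58, 14.3 and 10.9 CPM in bone GFP+ (hi) (log2 fold change 8.53, SE 0.41, adjusted p = 1.1e-05). *Lama1*, the laminin chain of embryonic basement membranes, was at 1102, 419 and 1331 CPM in ESC-OB GFP+ and 1.63, 2.28 and 0.792 CPM in bone GFP+ (hi) (log2 fold change 9.28, SE 0.51, adjusted p = 1.1e-05). *Lamb3*, of the laminin under stratified epithelia, was at 87.4, 76.6 and 87.9 CPM in ESC-OB and had no count in bone, at least 1343-fold higher. In ESC these genes were at lower levels than in ESC-OB, with *Col4a1* at 13 to 13.7 CPM of total counts against 3957 to 9806. The 2 members called lower, *Hspg2*, perlecan (65.8, 76.6 and 66.5 CPM in ESC-OB GFP+ and 233, 131 and 109.8 CPM in bone GFP+ (hi)), and *Lamb2* (201, 170.2 and 273 CPM in ESC-OB GFP+ and 491, 606 and 404 CPM in bone GFP+ (hi)), turned to higher on total counts.

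Keratins and junction genes of epithelium were at or near 0 in bone GFP+ (hi) and high in ESC-OB GFP+. All 12 simple epithelium genes rose (median 9.25), on total counts as well, taking 0.453 to 0.783% of counts in ESC-OB and 0.00021 to 0.000311% in bone. *Krt8* had 34881, 22814 and 30109 counts in ESC-OB and 1, 0 and 1 in bone, a ratio of scaled counts of 14819.7-fold (exact 95% counting interval 4102 to 122373). Its partner *Krt18* was at 481, 448 and 547 CPM in ESC-OB GFP+ and 0.136, 0.095 and 0 CPM in bone GFP+ (hi). *Krt19* was at 909, 385 and 579 CPM in ESC-OB, with no count in bone. *Cdh1*, E-cadherin, was at 171, 90.4 and 146 CPM in ESC-OB GFP+ and 1.86, 1.995 and 2.57 CPM in bone GFP+ (hi) (log2 fold change 5.99, SE 0.28, adjusted p = 4.1e-06), and *Cldn4*, a tight junction gene, at 271, 163 and 283 CPM in ESC-OB GFP+ and 0.408, 0.285 and 0.528 CPM in bone GFP+ (hi). The ESC, which are themselves epithelial in form, had *Cdh1* at 312 to 397 CPM of total counts and ESC-OB at 179 to 347, whereas *Krt19* was at 2.24 to 3.82 and 764 to 1845. The bone counts of *Cdh1* were under 0.5% of its ESC level. As for the other genes under that share, given with the pluripotency genes below, these counts are not read as expression in bone.

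Genes of stratified epithelium followed. Of 10 members tested 9 rose and 1 fell (median 10.83, or 10.27 with genes at 0 counts in bone set to their bound; 9 and 0 on total counts). *Krt14* and *Krt5* form the filaments of basal cells. *Krt14* was at 339.9, 302 and 305 CPM in ESC-OB GFP+ and 0.454, 0.57 and 0 CPM in bone GFP+ (hi) (log2 fold change 9.87, SE 0.55, adjusted p = 3.4e-06), and *Krt5* at 217, 156 and 162 CPM in ESC-OB with no count in bone. *Krt17* was at 393, 355 and 414 CPM in ESC-OB GFP+ and 0, 0.285 and 0.066 CPM in bone GFP+ (hi). *Krt10*, which marks the layers above the basal cells, was at 2.04, 2.73 and 1.53 CPM in ESC-OB GFP+ and 4.13, 3.8 and 6.27 CPM in bone GFP+ (hi). It was the member called lower, at adjusted p = 0.043, and without each of the 6 libraries in turn the call was lost.

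Airway genes could be read in part, since 9 of the 16 listed had no row in the table of bone. Of 5 tested 4 rose (median 4.45). *Foxj1*, the factor of motile cilia, was at 13, 9.68 and 13.8 CPM in ESC-OB GFP+ and 0.817, 0.76 and 0.066 CPM in bone GFP+ (hi) (log2 fold change 4.45, SE 0.6, adjusted p = 5.5e-04). The club cell secretoglobin *Scgb1a1*, without a row for bone, was at 36.5 to 198 CPM of total counts in ESC-OB.

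Of 14 endoderm and liver genes 12 rose and 1 fell (median 6.21; 13 and 1 on total counts). *Gata4* and *Gata6*, factors of endoderm and heart, were at 138, 50.7 and 147 and 91.6, 54.3 and 71.4 CPM in ESC-OB and at most 0.380 and 0.285 CPM in bone. *Foxa1*, which opens chromatin in endoderm, was at 37.4, 30.9 and 35.5 CPM in ESC-OB and without a count in bone, at least 555-fold higher. *Apoa1*, an apolipoprotein of liver and gut, was at 90.9, 256 and 42.1 CPM in ESC-OB GFP+ and 0.635, 0.665 and 1.25 CPM in bone GFP+ (hi). *Rbp4*, retinol-binding protein, was the member that fell, at 5.37, 12.7 and 8.54 CPM in ESC-OB GFP+ and 62.1, 73.6 and 82.7 CPM in bone GFP+ (hi).

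Smooth and cardiac muscle genes were mostly higher in ESC-OB GFP+. Of 12 smooth muscle genes 10 rose and 1 fell (median 6.76), the latter turning to higher on total counts. *Acta2*, smooth muscle actin, was at 246, 386 and 123 CPM in ESC-OB GFP+ and 2.36, 5.23 and 0.33 CPM in bone GFP+ (hi) (log2 fold change 6.66, SE 0.68, adjusted p = 2.1e-04). *Cnn1*, calponin, was at 14.6, 27.1 and 9.12 CPM in ESC-OB with no count in bone, at least 261-fold higher. *Myh11*, the smooth muscle myosin, had 2 counts over the bone libraries and a ratio of 619-fold (exact 95% counting interval 171 to 5111). The 3 genes were highest in ESC-OB replicate 2.

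Of 12 cardiac genes listed 9 were tested and 9 rose (median 8.98, or 6.59 with bounds). *Myh6* and *Myh7*, the heart myosins, were at 29.8, 37.4 and 52.5 and 53.8, 38 and 60.1 CPM in ESC-OB and at most 0.0950 and 0.132 CPM in bone. *Myl3*, a light chain, was at 78.9, 43.3 and 54.4 CPM in ESC-OB GFP+ and 1.36, 0.57 and 1.25 CPM in bone GFP+ (hi). *Nkx2-5*, a factor of heart formation without a row for bone, was at 0.526 to 1.69 CPM of total counts in ESC-OB. Of 14 skeletal muscle genes 5 were tested, 3 rose and 1 fell (4 and 1 on total counts), and the defining factors *Myod1* and *Myf5* were at 0 to 0.145 CPM of total counts in ESC-OB.

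Of 11 endothelial genes tested 7 rose and 0 fell (median 7.51, or 6.18 with bounds). Over the 13 members with a row in both tables the median was 2.19 by DESeq2. *Flt1*, a receptor for vascular growth factor, was at 39.9, 43.2 and 47.9 CPM in ESC-OB with no count in bone, at least 692-fold higher. *Cdh5*, the cadherin that defines endothelium, was at 6.24, 2.66 and 4.29 CPM, at least 72.6-fold higher. *Tek* was at 35.3, 12.5 and 31.9 CPM against at most 0.0660 in bone. Of the 14 neural genes 6 were tested, 3 rose and 2 fell (5 and 1 on total counts), and the members summed to at most 0.00804% of the counts in ESC-OB.

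Erythroid and lymphoid genes took small shares in both groups. The erythroid list summed to 0.000211 to 0.000324% of counts in ESC-OB and 6.61e-05 to 0.00151% in bone, and the lymphoid list to 0.000353 to 0.000435% and 3.31e-05 to 0.000159%. Of 2 erythroid genes tested 1 fell (on total counts 1 rose and 1 fell), and of 2 lymphoid genes 1 rose. The neutrophil list took 0.0729 to 0.0938% of the counts in ESC-OB and 0.000175 to 0.00235% in bone, and the monocyte and macrophage list 0.0209 to 0.0278% and 0.000675 to 0.00155%. Both shares were higher in each ESC-OB library than in any bone library, the neutrophil share mainly through *Ltf*. Of 11 monocyte and macrophage genes tested 6 rose and 1 fell (median 3.17; 9 and 1 on total counts). The genes that rose included *Cd14* (76.6, 70.5 and 55.9 CPM in ESC-OB GFP+ and 4.45, 8.08 and 4.35 CPM in bone GFP+ (hi)) and *Cd68* (30.1, 19.3 and 22.7 CPM in ESC-OB GFP+ and 0.953, 1.33 and 0.33 CPM in bone GFP+ (hi)), which cells other than macrophages can express, while *Cd163*, a scavenger receptor of tissue macrophages, fell (0.0185, 0 and 0 CPM in ESC-OB GFP+ and 3.31, 2.95 and 7.19 CPM in bone GFP+ (hi)). Of 5 neutrophil genes tested 3 rose and 1 fell (4 and 0 on total counts). DESeq2, over 10 members, called 3 higher and 4 lower (median -2.55). The joint fit of 18 libraries, limited to symbols that the bone chip table also holds, tested 5 and called 0 higher and 3 lower. The members tested can differ between the fits, so these counts do not compare methods on the same genes. *Ltf*, lactoferrin, a granule protein that glands also secrete, was at 449.8, 352 and 377 CPM in ESC-OB GFP+ and 0.136, 16.5 and 3.89 CPM in bone GFP+ (hi). The whole list summed to 463, 367 and 386 CPM in ESC-OB and 3.49, 47.8 and 23.2 CPM in bone. *Ltf* thus made up most of the ESC-OB sum.

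Genes of the osteoclast, the cell that resorbs bone, were mostly lower in ESC-OB. Of 6 tested 4 fell and 1 rose (median -2.26; 1 and 1 on total counts). *Ctsk*, the collagen-degrading cathepsin, was at 19.9, 38.9 and 41.8 CPM in ESC-OB GFP+ and 154, 158 and 129 CPM in bone GFP+ (hi), and *Acp5*, acid phosphatase, at 9.58, 7.29 and 7.29 CPM in ESC-OB GFP+ and 42, 42.5 and 42 CPM in bone GFP+ (hi). *Nfatc1*, which drives osteoclast formation, was at 22.7, 32.7 and 38.7 CPM in ESC-OB GFP+ and 206, 209.7 and 122 CPM in bone GFP+ (hi). On total counts the differences of these 3 genes, -0.12, -0.38 and -0.5, were not called. *Tnfrsf11a*, the receptor RANK, was at 2.24, 1.73 and 1.16 CPM in ESC-OB and had no count in bone.

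*Hox* genes, which encode position along the body and limb axis, fell or were not called in ESC-OB GFP+ on the TMM scale. Of 6 genes tested from *Hox* paralog groups 9 to 13, 5 fell and none rose on either scale. Of the 16 listed, 13 had a row in both tables, and over these the median was -2.53 by DESeq2, against -6.45 over the 6 tested, most of which were near 0 in ESC-OB and passed the filter through the bone libraries. *Hoxa10* was at 0.278, 0.195 and 0.28 CPM in ESC-OB GFP+ and 21.8, 21.6 and 30.4 CPM in bone GFP+ (hi) (log2 fold change -6.58, SE 0.29, adjusted p = 3.3e-06), and *Hoxc10* at 0.167, 0.0488 and 0.0862 CPM in ESC-OB GFP+ and 10.1, 12.1 and 6.73 CPM in bone GFP+ (hi) (log2 fold change -6.48, SE 0.52, adjusted p = 3.7e-05). Among the earlier paralog groups 1 to 8, 7 of 14 fell (median -2.16), and on total counts 4 fell and 5 rose. *Hoxa7* and *Hoxc6* were at 0.195 to 0.345 and 0.122 to 0.204 CPM in ESC-OB and 4.56 to 7.72 and 4.31 to 4.75 CPM in bone. The groups did not overlap for these 4 genes.

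Of 14 limb mesenchyme factors 5 rose and 5 fell (median -0.08; 9 and 4 on total counts). *Shox2*, which patterns the proximal limb, was at 0.0926, 0.195 and 0.539 CPM in ESC-OB GFP+ and 51.4, 44.1 and 67.2 CPM in bone GFP+ (hi) (log2 fold change -7.62, SE 0.49, adjusted p = 1.2e-05). *Tbx2* was at 4.41, 8.8 and 5.82 CPM in ESC-OB GFP+ and 269, 304 and 255 CPM in bone GFP+ (hi) (log2 fold change -5.45, SE 0.24, adjusted p = 4.2e-06), and *Tbx15*, which shapes limb and head skeleton, at 1.37, 1.73 and 2.8 CPM in ESC-OB GFP+ and 35.9, 36 and 61.1 CPM in bone GFP+ (hi). Factors that rose included *Prrx2* (20.7, 31 and 25.3 CPM in ESC-OB GFP+ and 3.49, 6.46 and 4.16 CPM in bone GFP+ (hi)) and *Meis2* (27.2, 33.7 and 22.8 CPM in ESC-OB GFP+ and 2.99, 1.33 and 7.39 CPM in bone GFP+ (hi)), which are expressed in embryonic mesenchyme.

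Imprinted genes of fetal growth were higher in ESC-OB. Of 15 tested 12 rose and 1 fell (median 2.76), and 15 rose on total counts. *Dlk1*, an inhibitor of adipocyte formation, was at 314, 598 and 422 CPM in ESC-OB GFP+ and 2.9, 0.855 and 0.462 CPM in bone GFP+ (hi) (log2 fold change 8.17, SE 0.53, adjusted p = 2.0e-05). *Igf2*, the fetal growth factor, was at 256, 702 and 554 CPM in ESC-OB GFP+ and 4.22, 6.18 and 1.52 CPM in bone GFP+ (hi) (log2 fold change 7.02, SE 0.49, adjusted p = 3.6e-05), and *H19*, the noncoding RNA beside it, at 136, 428 and 227 CPM in ESC-OB GFP+ and 2.54, 2.38 and 0.726 CPM in bone GFP+ (hi) (log2 fold change 7.12, SE 0.53, adjusted p = 3.5e-05). The 3 genes lay between 136 and 702 CPM in the ESC-OB libraries and reached at most 6.18 CPM in a bone library.

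Pluripotency genes other than *Klf2* and *Klf5* gave low values in both groups. Of 14 listed genes tested, *Klf2* and *Klf5* included, 10 fell and 2 rose (median -2.97; 8 and 5 on total counts). *Tdh*, a metabolic enzyme of ESC, had 0, 0 and 1 counts in ESC-OB and 103, 53 and 69 in bone, and *Fgf4* had 0 in ESC-OB and 22, 11 and 18 in bone. In the bone GFP+ (hi) libraries 18 of the 20 listed genes stood at 0.208 to 0.356% of their level in ESC, with a median of 0.289%, and in bone GFP- libraries the median was 0. In all, 248 tested genes were at 0.5% or less of the ESC level in bone, of which 22 were called lower and 168 higher in ESC-OB. The bone counts of such genes, *Tdh* and *Fgf4* included, are therefore not read as expression in bone, nor are the falls of the 22 genes read as a difference between the cells. Before the filter on low counts, 362 genes with at least 10 CPM of total counts in ESC were at that share. Leaving them out gave 3803 genes higher and 3287 lower over all genes. The part of this common share in single results was not tested. *Klf2*, which endothelium and other cells use too, fell (45.8, 104 and 76.6 CPM in ESC-OB GFP+ and 587, 508 and 553 CPM in bone GFP+ (hi)), and *Klf5*, also a factor of epithelium, rose (191, 136 and 201 CPM in ESC-OB GFP+ and 19.1, 21.6 and 23.1 CPM in bone GFP+ (hi)). *Sox2*, used by epithelium and nerve as well, was at 7.65, 6.09 and 8.6 CPM in ESC-OB GFP+ and 2.59, 2.57 and 3.36 CPM in bone GFP+ (hi), and its call was lost without ESC-OB replicate 3. The bone counts of *Sox2*, at 0.314% of the ESC level, are among those not read as expression in bone.

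Secreted inhibitors of Wnt signalling differed in kind. Of 12 tested 5 rose and 5 fell (median -0.12; 7 and 5 on total counts). *Sfrp4* was at 0.204, 1.22 and 0.582 CPM in ESC-OB GFP+ and 108, 173 and 118 CPM in bone GFP+ (hi) (log2 fold change -7.67, SE 0.47, adjusted p = 1.6e-05), *Wif1* at 1.82, 9.51 and 2.26 CPM in ESC-OB GFP+ and 144, 131 and 105 CPM in bone GFP+ (hi) and *Notum*, a lipase that inactivates Wnt, at 3.001, 6.14 and 2.95 CPM in ESC-OB GFP+ and 86.7, 67.4 and 35.4 CPM in bone GFP+ (hi). *Sfrp1* moved the other way, at 94.8, 157 and 99.6 CPM in ESC-OB GFP+ and 4.76, 7.22 and 9.7 CPM in bone GFP+ (hi) (log2 fold change 4.03, SE 0.29, adjusted p = 2.7e-05), as did *Dkk2* (4.58, 7.63 and 3.56 CPM in ESC-OB GFP+ and 0.544, 0.57 and 0.066 CPM in bone GFP+ (hi)).

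Of 16 BMP ligands and antagonists 6 rose and 8 fell (median -0.60; 9 and 2 on total counts). The pseudoreceptor *Bambi* was at 16.6, 21.1 and 19.1 CPM in ESC-OB GFP+ and 593, 583 and 648 CPM in bone GFP+ (hi) (log2 fold change -5.01, SE 0.15, adjusted p = 1.1e-06), and *Bmp3*, a ligand that opposes bone formation, at 9.67, 12.2 and 9.31 CPM in ESC-OB GFP+ and 159, 136 and 148 CPM in bone GFP+ (hi). The antagonists *Fst*, follistatin, and *Nog*, noggin, rose (87.4, 67.9 and 104 CPM in ESC-OB GFP+ and 0.318, 0.095 and 1.12 CPM in bone GFP+ (hi); 33.6, 17 and 24.6 CPM in ESC-OB GFP+ and 0.726, 0.57 and 0 CPM in bone GFP+ (hi)). *Grem1*, gremlin, was at 3.69, 9.17 and 4.25 CPM in ESC-OB with no count in bone, at least 86.9-fold higher.

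Of 17 chemokines and inflammatory factors 9 rose and 2 fell (median 2.98; 13 and 1 on total counts). *C3*, the complement component, was at 495, 1045 and 560.5 CPM in ESC-OB GFP+ and 1.63, 1.71 and 4.42 CPM in bone GFP+ (hi) (log2 fold change 8.08, SE 0.43, adjusted p = 1.1e-05). *Lcn2*, an iron-binding protein of epithelia and neutrophils, was at 163, 313 and 122 CPM in ESC-OB GFP+ and 0.136, 1.24 and 0.924 CPM in bone GFP+ (hi), and *Saa3*, an acute-phase protein, at 45, 242 and 104 CPM in ESC-OB GFP+ and 0, 0 and 0.198 CPM in bone GFP+ (hi). *Tnfrsf11b*, the decoy receptor osteoprotegerin that osteoblasts secrete, fell (10, 19 and 10.3 CPM in ESC-OB GFP+ and 63.2, 82.1 and 71.6 CPM in bone GFP+ (hi)), and on total counts its difference of -0.46 was not called. *Ptgs2*, which makes prostaglandins, fell on both scales (11.2, 31 and 22.4 CPM in ESC-OB GFP+ and 217, 293 and 127 CPM in bone GFP+ (hi)).

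Genes of fibroblasts and of marrow stroma did not move as a block. Of 18 fibroblast and progenitor genes 3 rose and 8 fell (median -0.37; 11 and 1 on total counts). *Ly6a*, the surface antigen Sca-1, was at 546, 343 and 301 CPM in ESC-OB GFP+ and 0.272, 0.855 and 0 CPM in bone GFP+ (hi) (log2 fold change 10.25, SE 0.71, adjusted p = 8.1e-06), *Pi16*, of fibroblast progenitors, at 51.9, 46.5 and 47.2 CPM in ESC-OB GFP+ and 0.136, 5.23 and 0.132 CPM in bone GFP+ (hi), and *Tnc*, tenascin C, at 29.9, 40.2 and 39.7 CPM in ESC-OB GFP+ and 347, 405 and 263 CPM in bone GFP+ (hi). Of 12 marrow stromal and adipocyte genes 8 rose and 2 fell (median 2.83; 10 and 1 on total counts). *Fabp4*, a fatty acid carrier, was at 38.5, 135 and 61.7 CPM in ESC-OB GFP+ and 0, 0.095 and 0 CPM in bone GFP+ (hi), and *Vcam1*, an adhesion receptor, at 51.4, 59.1 and 63 CPM in ESC-OB GFP+ and 1.86, 3.52 and 3.1 CPM in bone GFP+ (hi). Of 16 matrix metalloproteinases and TIMPs 7 rose and 7 fell (median 0.45), while on total counts 10 rose and 3 fell (median 2.46). *Mmp16* was at 1.11, 3.44 and 1.64 CPM in ESC-OB GFP+ and 309, 282 and 275 CPM in bone GFP+ (hi) and the inhibitor *Timp1* at 22.5, 52 and 26.8 CPM in ESC-OB GFP+ and 330.1, 341 and 319 CPM in bone GFP+ (hi), both lower in ESC-OB on both scales, whereas *Mmp3* rose (61.5, 118 and 91.4 CPM in ESC-OB GFP+ and 4.58, 10.8 and 1.06 CPM in bone GFP+ (hi)).

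Immediate early genes, which are induced within minutes by handling or stimulation, were high in both groups. None of 22 rose and 16 fell on the TMM scale (median -1.36), while on total counts 12 rose and 1 fell (median 0.65). *Fos* was at 1032, 1230.2 and 831 CPM in ESC-OB GFP+ and 4168, 4062 and 3795 CPM in bone GFP+ (hi). *Nr4a2* was at 5.78, 13.1 and 17.2 CPM in ESC-OB GFP+ and 103, 90.3 and 95.6 CPM in bone GFP+ (hi) and differed by -3.0 ± 0.34, and on total counts by -1.0. *Egr2* and *Jund* fell by TMM (-2.27 ± 0.28 and -2.23 ± 0.18) and were not called on total counts.

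Respiratory chain genes were close in level between the groups on the TMM scale. For 25 of the 25 genes the 95% interval of the fold change lay within 2-fold, where 26.3% of all genes did. Of these 3 were called higher and 7 lower (median -0.22). On total counts 25 of 25 were called higher, so the closeness holds on the TMM scale, where the list took 0.504 to 0.546% of counts in ESC-OB and 0.14 to 0.15% in bone before scaling.

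The counts of glycolysis and cell cycle genes depended on the scaling. Of 22 genes of glycolysis and low oxygen 11 rose and 5 fell (median 0.67), while on total counts 21 rose and 0 fell (median 2.68). *Slc2a1*, the glucose transporter of most cells, was at 161, 149.8 and 151 CPM in ESC-OB GFP+ and 19.2, 17.3 and 13.1 CPM in bone GFP+ (hi) (log2 fold change 3.22, SE 0.16, adjusted p = 5.2e-06), and *Egln3*, induced by low oxygen, at 37.7, 49 and 41.8 CPM in ESC-OB GFP+ and 0.363, 0.19 and 0.066 CPM in bone GFP+ (hi) (log2 fold change 7.54, SE 0.46, adjusted p = 4.0e-06). *Pfkfb3*, which speeds glycolysis, fell (16.4, 29.5 and 26.9 CPM in ESC-OB GFP+ and 143, 140.4 and 97 CPM in bone GFP+ (hi)), and on total counts its difference of -0.38 was not called. Of 30 cell cycle genes 9 rose, none fell and 21 were not called (median 0.92), a share of 30% higher against 27.3% of all genes tested. On total counts 30 rose (median 2.94). *Rrm1*, of nucleotide synthesis, was at 98, 57.2 and 67.6 CPM in ESC-OB GFP+ and 17.1, 17.4 and 17.5 CPM in bone GFP+ (hi) (log2 fold change 2.1, SE 0.21, adjusted p = 9.6e-05), and the replication gene *Mcm4* at 34.2, 26.3 and 31.3 CPM in ESC-OB GFP+ and 9.93, 7.03 and 4.62 CPM in bone GFP+ (hi) (log2 fold change 2.08, SE 0.28, adjusted p = 5.3e-04). The reference genes *Actb*, *Gapdh* and *Hprt* were higher in ESC-OB by 0.99 ± 0.17, 1.19 ± 0.16 and 1.19 ± 0.18 on the log2 scale, and by 3.0, 3.19 and 3.19 on total counts.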

How the data were processed

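RNA of 3 ESC-OB GFP+ and 3 bone GFP+ (hi) libraries was analysed. The authors selected polyadenylated RNA before library preparation. Paired-end reads were aligned by them with STAR (version 2.4.2a), and the submitters' processing notes also name the build mm9, DESeq2 and R (version 3.2.2). The deposited values are raw counts per gene symbol, in 1 table per source. The counting tool and its strand setting are not given in the sources used here, so overlapping and antisense genes cannot be told apart. Replicate numbers follow the labels.

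The tables were joined on symbols: 19781 in the table of ESC and ESC-OB and 17173 in that of bone, with 16876 in both. In the first, 2878 symbols had no row in the bone table and 27 read as dates, both left out. Genes were filtered with filterByExpr of edgeR 4.0.16 (minimum count 10, R 4.3.3), scaled by TMM over these 6 libraries and tested with the quasi-likelihood test without covariates, since source and table leave no term that could separate them. Calls are at a Benjamini-Hochberg adjusted p under 0.05 over all genes. SE and 95% intervals come from the same fit. At the smallest total, 20680956 counts, a gene at 1 CPM of total counts has about 21 counts. Where a group had no count, folds were taken against a floor of 3 counts over the group. With 1 to 3 counts an exact interval of the ratio is given, which covers counting error only. The fit was also run on simulated counts with known folds. These were drawn from pooled means, so they lack the difference in composition of the real libraries, and their outcome is not reported here.

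The 3 markers and the samples came with the comparison, and 41 gene lists with 684 genes were used as descriptions, by counts and medians. The members and lists were chosen with earlier results of these data known. Genes named are the markers, the type I collagen and reference genes, the 10 largest rises and falls, the 5 most abundant genes of each group, the osteoblast matrix and transcription factor lists, and up to 3 called members per direction of each list; some of these are not reported here. Other members named, such as *Col3a1*, *Scgb1a1*, *Comp* and *Cd14*, were picked after their values were seen.

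Alternatives were DESeq2 1.42.0, RLE, upper-quartile and total-count scaling, genes kept without a filter or at 1 CPM in 3 libraries, a replicate block, thinning each library to 20680956 counts, 1 fit of all 18 libraries, glmTreat against a log2 fold change of 1, leaving out *Col1a1* and the ribosomal RNA precursor, and leaving out each library. Setting symbols without a row to 0, and leaving out genes at 0.5% or less of the ESC level in bone, were added after the data were seen. Promoter windows are from RefSeq, placed in mm9 by exact match, and gene positions from GENCODE vM1. Python 3.11.15 with pandas 2.3.3, scipy 1.17.1 and matplotlib 3.10.9 was used for summaries and plots.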

Additional observations from a re-analysis of the deposited data

Results flagged for a closer look

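Some of the most abundant genes of the ESC-OB GFP+ libraries lie outside the comparison because the bone table has no row for them. Why these rows are missing is not stated in the sources used here, so no fold is given. The smallest row total in the bone table was 2 counts, while the table of ESC and ESC-OB kept 120 rows without a count. Whether the missing rows were dropped for low counts was not tested. In all, 57 such symbols had at least 10 CPM of total counts in every ESC-OB library, and all 57 were higher in each ESC-OB library than in any ESC library, the undifferentiated cells in the same table. *Krt15*, a keratin of basal epithelial cells, had a mean of 2174 CPM of total counts over the 3 ESC-OB libraries. *Upk1b*, a uroplakin of the urinary tract lining, had 930 CPM. *Bpifa1*, a secreted protein of the upper airway, had 575 CPM, and *Upk3bl*, a uroplakin-like gene, 332 CPM. These 4 are among the highest means of the 57.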

How the results depend on the processing

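Scaling mattered most. On total counts 12336 genes were higher, 568 lower and 593 within 2-fold, and *Hspg2*, *Lamb2* and *Krt10* turned to 0.82, 0.79 and 0.83 on the log2 scale. Testing against a 2-fold change (glmTreat) left 2380 higher and 1452 lower. Leaving out 1 library gave 3094 to 4240 higher, 2829 to 3589 lower, 2887 to 4154 within 2-fold and 387 to 420 called list members. The replicate numbers gave no sign of pairing (correlations of deviations from group means 0.0088, -0.030 and -0.038), and a fit with a replicate block called 3326 higher and 2928 lower, with 3344 within 2-fold. DESeq2 gave 4442 and 3569, thinned libraries 3972 and 3282, and the joint fit of 18 libraries 4543 and 4106. Of the alternatives added after the data were seen, setting symbols without a row to 0 gave 4335 higher and 3413 lower, and leaving out genes at 0.5% or less of the ESC level in bone gave 3803 and 3287. Apart from total counts, no alternative turned the direction of a gene named with a fold. What depth limits is the scarce genes: those with no count in bone have lower bounds and no upper one.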

Other observations

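The 3 ESC-OB GFP+ libraries differed from each other along several lists at once. Replicate 2 was the highest of the 3 for 18 of 24 osteoblast matrix genes, 14 of 16 fibrillar and beaded collagens and 12 of 12 smooth muscle genes, and replicate 1 was the lowest for 19 of the 24 osteoblast matrix genes. Replicate 2 was also the lowest for 14 of 21 basement membrane genes, 12 of 12 simple epithelium genes, 9 of 10 stratified epithelium genes and 27 of 30 cell cycle genes. The osteoblast matrix list took 1.59, 2.59 and 1.95% of the counts of replicates 1 to 3, and the basement membrane list 2.32, 1.13 and 2.61%. *Ibsp* ranged from 0.315 CPM in replicate 1 to 737 CPM in replicate 2. Other lists differed: replicate 2 was lowest for 7 and highest for 4 of 14 endoderm and liver genes, and highest for 17 of 25 respiratory chain genes. The lists named here were picked after their orders were seen, and the order over all genes tested was not counted. With 3 libraries and no label beyond the replicate number, these orders were not tested.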
